A study of Homo sapiens with 40 samples.

Results

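The loci of 10 genes that control the G1 phase of the cell cycle (CCND1, CCND2, CCND3, CCNE1, CCNE2, CDK4, CDK6, CDKN1A, CDKN1B and CDKN2A) were examined for open chromatin in the ATAC-seq peak lists of 40 libraries. Overlapping peaks of all libraries were merged when they shared at least 1 bp, and the 71600 merged regions found in at least 2 libraries were kept. A region was assigned to a gene when its midpoint lay in the GENCODE gene body or within 50 kb of either end (GRCh38). This rule gave 81 regions, namely 12 at CCND1, 3 at CCND2, 12 at CCND3, 6 at CCNE1, 5 at CCNE2, 11 at CDK4, 13 at CDK6, 10 at CDKN1A, 7 at CDKN1B and 2 at CDKN2A. The rule used position only, and no measured level entered the choice of regions.

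D-type cyclins (CCND1, CCND2, CCND3) bind CDK4 and CDK6 when growth factors signal, and the kinases phosphorylate the retinoblastoma protein. E-type cyclins (CCNE1, CCNE2) with CDK2 complete that phosphorylation and carry cells into S phase. CDKN1A (p21) and CDKN1B (p27) bind and restrain these complexes, whereas CDKN2A encodes p16, which blocks CDK4 and CDK6. In HER2-positive breast cancer this module lies downstream of receptor signalling and is the target of CDK4/6 inhibitors.

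ATAC-seq inserts sequencing adapters into accessible DNA, so a peak marks open chromatin. BT474 is an established breast ductal carcinoma line with amplified HER2 that is sensitive to trastuzumab, an antibody against HER2. BT474R is a single resistant clone derived from BT474 under trastuzumab, so a difference between the lines cannot be told apart from a difference of that clone. Both lines were serum-starved and collected at baseline (0 h) or 1, 12 and 24 h after EGF, HRG (heregulin, which binds HER3 and HER4) or water (vehicle, called the control), with 2 libraries for each of the 20 groups. The study's methods give the treatments as done in duplicate. Neither they nor the labels say whether the duplicates were independent cultures, so p-values measure only the spread between these libraries, which may be technical.

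Each library's list held 32479 to 56846 peaks, and read depth per library is unknown. The 20 BT474 lists ran from 47571 to 56846 peaks and the 20 BT474R lists from 32479 to 56494, the shortest being the 12 h control (32479 and 40331) and 12 h EGF lists (38205 and 37476) of BT474R. The promoters of the 8 luminal epithelial markers examined were open in at least 19 of 20 libraries of each line. Among markers of blood, endothelium and fibroblasts, PTPRC, CD3E, PECAM1 and COL1A2 had no promoter peak in any library, CDH5 was open in all 40 libraries, and PDGFRB in 12 of 20 BT474 and 0 of 20 BT474R libraries.

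Peak strength was the area score of the deposited lists (column 7), used only as a rank. The within-list percentile places a region among all regions of its own library, from 0 for the weakest to 100 for the strongest. Because it depends on how long a list is, tests were made on an equal-length percentile: the 30226 strongest regions of each library were ranked and every other region was set to 0. At weak regions both scales moved with list length, in opposite directions. A recomputed call that held on only 1 scale is therefore named as such. The part of list length was not tested. Where most libraries of a comparison were at 0, the spread between libraries was understated and the adjusted p is too small. Differences are in equal-length percentile points unless stated, with the SE of the fit, and adjusted p-values are from limma with Benjamini-Hochberg correction over all regions tested.

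The sequences below are the 200 bases around the median summit of 5 regions that carried the ligand responses described further on, read from GRCh38 on the plus strand. Capitals mark the only letters searched for that were found: TGAGTCA (AP-1), GGAATG or its complement CATTCC (TEAD) and GGGCGG or its complement CCGCCC (SP/KLF).
CDK6 intron, chr7:92763706-92763905: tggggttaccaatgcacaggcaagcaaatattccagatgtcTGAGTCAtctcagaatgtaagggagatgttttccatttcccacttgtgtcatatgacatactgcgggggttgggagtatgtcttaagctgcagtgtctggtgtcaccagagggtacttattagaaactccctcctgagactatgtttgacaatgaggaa
FAM133B intron downstream of CDK6, chr7:92585008-92585207: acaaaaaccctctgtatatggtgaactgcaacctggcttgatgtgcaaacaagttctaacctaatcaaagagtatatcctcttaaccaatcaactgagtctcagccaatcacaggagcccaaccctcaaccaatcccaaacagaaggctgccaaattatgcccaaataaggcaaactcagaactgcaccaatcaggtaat
CDK6 intron, chr7:92674219-92674418: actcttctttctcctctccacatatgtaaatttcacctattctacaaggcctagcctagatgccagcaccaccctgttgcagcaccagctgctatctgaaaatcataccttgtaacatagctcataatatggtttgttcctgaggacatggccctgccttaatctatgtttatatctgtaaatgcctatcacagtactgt
Intergenic, downstream of CCNE1, chr19:29835081-29835280: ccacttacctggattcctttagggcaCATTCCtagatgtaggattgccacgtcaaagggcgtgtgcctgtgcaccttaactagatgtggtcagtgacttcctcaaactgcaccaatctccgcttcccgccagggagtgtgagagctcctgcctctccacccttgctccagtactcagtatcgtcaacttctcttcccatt
CDKN1A intron, chr6:36682812-36683011: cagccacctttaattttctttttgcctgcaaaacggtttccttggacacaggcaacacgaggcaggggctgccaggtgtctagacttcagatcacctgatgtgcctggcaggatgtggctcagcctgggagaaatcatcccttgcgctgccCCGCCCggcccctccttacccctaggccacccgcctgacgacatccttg

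The next sequences are the 250 bases upstream of the start of CDKN1B (plus strand) and CCND3 (minus strand, shown 5′ to 3′ in the direction of the gene), taken from RefSeq (GRCh38.p14) because these promoters differed between the lines in opposite directions. CCND1 and CCND2 had no entry there. Capitals mark GGGCGG or its complement (the SP/KLF letters CCGCCC), the TEAD letters CATTCC and the ETS letters CCGGAAG.
CDKN1B, chr12:12717118-12717367: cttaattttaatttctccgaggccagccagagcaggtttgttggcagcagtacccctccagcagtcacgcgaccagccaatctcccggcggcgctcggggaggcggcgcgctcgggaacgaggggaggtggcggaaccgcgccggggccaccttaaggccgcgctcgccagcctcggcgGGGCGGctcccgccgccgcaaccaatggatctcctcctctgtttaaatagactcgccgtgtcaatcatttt
CCND3, chr6:41941809-41942058: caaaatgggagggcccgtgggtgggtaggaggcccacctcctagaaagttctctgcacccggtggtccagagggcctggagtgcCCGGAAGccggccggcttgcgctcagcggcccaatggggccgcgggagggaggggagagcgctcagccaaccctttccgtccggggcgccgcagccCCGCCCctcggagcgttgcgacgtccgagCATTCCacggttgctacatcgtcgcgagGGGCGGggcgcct

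Of all 35116 RefSeq promoter windows, 42.6% held GGGCGG on either strand, 8.52% held CCGGAAG and 11.9% held GGAATG. In the 200 bp around the summit, GGGCGG was found in 24 of the 81 regions (29.6%) against 19.2% of all 71600 regions. TGAGTCA was found in 4 of 81 (4.94%) against 13%. These 4 were the CDK6 intron region printed first, a second CDK6 intron region (chr7:92633221-92633941) and 2 regions at CDKN1A (chr6:36643150-36643540 and chr6:36679900-36680798). GGAATG stood in 13.6% of the regions (13.7% of all), AGATAA (bound by GATA factors) in 7.41% (8.86%), TGTTTAC (FOXA) in 6.17% (8.53%), CACGTG (E-box) in 6.17% (4.39%) and CCGGAAG in 2.47% (3.85%). TGACGTCA (CREB) and the E2F letters TTTGGCGC or TTTCGCGC were in none of the 81 windows and in 0.666% and 0.387% of all regions. A match of letters is a description and not a binding site.

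Most of the G1 loci had at least 1 region open in every condition. Of the 81 regions, 35 (43.2%) had a peak in all 40 libraries, compared with 35.1% of all regions. By annotation 31 lay within 1 kb of a protein-coding start, 27 in introns, 15 between genes and 8 in exons. The nearest start belonged to the gene itself for 37 regions and to another gene for 44, so many of these regions are promoters of neighbours such as LTO1, TIGAR, TSPAN31, METTL1 and CDKN2B. Their median within-list percentile was 54.7, against 51.2 for all regions, and their median width was 615 bp against 551 bp.

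A BT474 library had a peak at 62 to 73 of the 81 regions (median 66.5), and a BT474R library at 38 to 65 (median 53). The 4 lowest numbers in BT474R, 38 to 45, were those of the 12 h control and 12 h EGF libraries, whose lists were also the shortest. More BT474 than BT474R libraries were open at 36 regions, fewer at 9, and 36 were equal; among all regions 37.9% were open in more BT474 and 25.5% in more BT474R libraries. There were 10 regions with peaks in BT474 only and 5 with peaks in BT474R only.

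**Figure D1:**
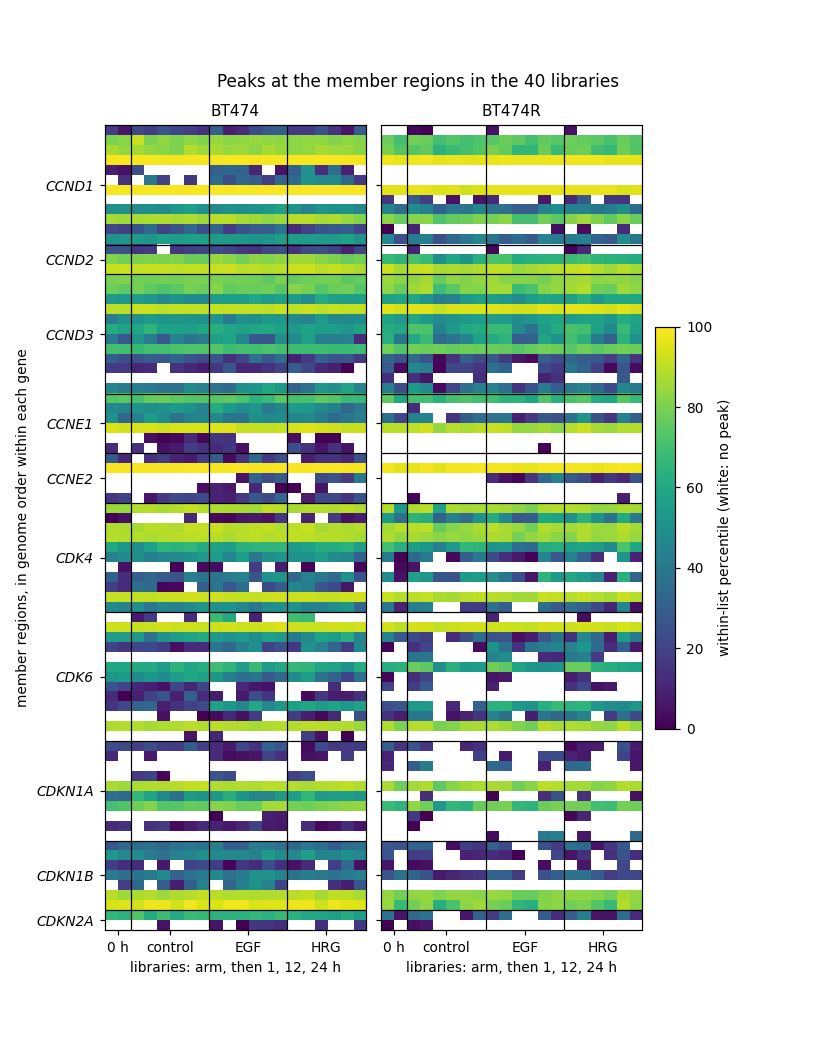
Within-list percentile (colour, 0 to 100; white, no peak) of the 81 regions, in rows by gene, in the 40 libraries, in columns by line, arm and time. For each member gene with a region at its own start, the strongest such region forms an unbroken row in both panels. Some other promoter regions have gaps. More rows are white in BT474R, where 38 to 65 of the 81 regions were open per library against 62 to 73 in BT474.

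CDK6, the kinase partner of D-type cyclins, carried the ligand response with the most calls, in an intron region 69890 bp downstream of its start (chr7:92763604-92764027, 424 bp, the first sequence above). In BT474 its within-list percentiles were 15.1 and 21.1 at baseline, 31.9 and 33.2 in the 1 h control, 8.4 and 14.6 in the 12 h control and 19.8 and 22.7 in the 24 h control. With EGF they were 57.7 and 52.9 at 1 h, 45.6 and 60.1 at 12 h and 46.2 and 54.3 at 24 h. With HRG they were 56.8 and 58.9, 55.3 and 57.8, and 52.7 and 57.4. All 12 ligand libraries of BT474 thus lay above all 8 libraries without ligand. In BT474R the baseline was 24.6 and 27.3, the 1 h control already 53.6 and 55.4, and the 12 h and 24 h control groups each had 1 library without a peak and 1 with a low one (11.3 and 31.9). EGF-BT474R gave 64.0 and 64.1, 54.0 and 51.2, and 63.0 and 67.3, and HRG-BT474R 64.2 and 65.4, 53.5 and 49.1, and 48.0 and 53.0. At each time the ligand libraries of BT474R lay above their control, with no overlap.

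Over the 3 times this region rose by 18.95 ± 2.99 percentile points with EGF (SE, 6 against 6 libraries, adjusted p = 0.000949) and by 27.71 ± 2.99 with HRG (3.7e-05) in BT474. In BT474R it rose by 35.80 ± 3.66 with EGF (2.2e-05) and by 23.25 ± 3.66 with HRG (0.005). These 4 calls held without any 1 of the 12 libraries and with the within-list percentile. They were lost in BT474R when only peaks with an area score of at least 400 were used (5.25, adjusted p = 0.052, with EGF and 0.07, adjusted p = 1, with HRG), a setting that removes the weaker peaks and left no value for this region in BT474. On the equal-length scale every BT474 library without ligand was at 0 here. In BT474 the region was thus tested only through the groups where it was high, and its p-values there are not independent support. By single time, HRG-BT474 was called at 1, 12 and 24 h (33.90, 25.25 and 24.00) and EGF-BT474 at 1 h (27.16), whereas EGF-BT474 at 12 h (17.88, adjusted p = 0.0627) and 24 h (11.80, 0.15) was not called. EGF-BT474R was called at 12 and 24 h (42.79 and 41.26) and HRG-BT474R at 12 h (31.33, adjusted p = 0.0191), and neither at 1 h (23.35, adjusted p = 0.0724, and 19.02, 0.479). The 12 h HRG-BT474R call was lost without any 1 of its 4 libraries (differences of 30.81 to 31.86). The 1 h EGF-BT474 call was lost without either control library or the first EGF library (25.83 to 27.16), the 12 h HRG-BT474 call without either control or the second HRG library (22.89 to 25.25), and the 24 h HRG-BT474 call without the second HRG library (20.20).

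The EGF response at this region was larger in BT474R than in BT474 at 24 h by 29.47 ± 8.24 points (adjusted p = 0.0218), and not at 1 h (-3.81, adjusted p = 1) or 12 h (24.91, 0.0818). That call was lost without 5 of the 8 libraries (both 24 h controls and the first EGF library of BT474, the first control and the second EGF library of BT474R; 23.28 to 29.47) and with the within-list percentile (20.11, adjusted p = 0.236). For HRG the difference between the lines was not called at any time (-14.87, 6.09 and -4.59).

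Another region of the CDK6 window was strong only at 1 h with a ligand, and only in BT474. It lies 248616 bp from the CDK6 start in an intron of FAM133B, the neighbouring gene (chr7:92584756-92585301, 4729 bp from the FAM133B start). Its within-list percentiles at 1 h in BT474 were 68.1 and 60.5 with EGF and 69.3 and 67.5 with HRG, against 7.0 and 16.7 in the control. Elsewhere it had a peak in 1 of the 24 h control libraries of BT474 (12.6), 1 of the 12 h EGF libraries of BT474 (9.3), 1 EGF-BT474R library at 1 h (10.2) and 1 HRG-BT474R library at 1 h (3.4). The 1 h rise was 41.72 ± 2.42 with EGF (2 against 2 libraries, adjusted p = 1.5e-06) and 50.20 ± 2.42 with HRG (7.68e-08). On the equal-length scale the region was above 0 only in the 1 h ligand libraries of BT474. It was therefore tested only through the groups where it was high, and its p-values are not independent support. The difference of the response between the lines was -41.72 ± 2.29 for EGF (adjusted p = 2.7e-11) and -50.20 ± 2.29 for HRG (3.6e-13), all BT474R libraries being outside the 30226 strongest regions, which makes these p-values too small. These calls held without any 1 library. Both EGF calls were lost with an area score of at least 400 (5.19, adjusted p = 0.464, for the rise in BT474).

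One more CDK6 intron region weakened with time after ligand in BT474 (chr7:92674127-92674742, 159175 bp from the start). It kept a peak in all 20 BT474 libraries. In BT474 its within-list percentiles were 52.8 and 54.4 at baseline and 48.5 to 59.5 in the 6 controls. At 12 h they were 36.7 and 38.8 with EGF and 38.0 and 32.0 with HRG, and at 24 h 28.1 and 34.4 with EGF and 20.2 and 37.6 with HRG. At 1 h the ligand libraries (53.0 and 43.2, 48.5 and 56.0) overlapped the control. The region fell by 23.19 ± 4.06 points at 12 h with EGF (adjusted p = 0.00651) and with HRG (0.00356), both ligand groups being at 0 on the equal-length scale, and fell by 30.57 ± 4.06 at 24 h with EGF (0.00048) and with HRG (0.000393). Over the 3 times it fell by 20.07 ± 2.34 with EGF (0.000119) and fell by 16.85 ± 2.34 with HRG (0.000255). The 12 h calls were lost with the within-list percentile (-13.89, adjusted p = 0.162, and -16.66, 0.0796), and the EGF one also without the second control or the second EGF library (-18.35 and -23.19). In BT474R 7 of 20 libraries had a peak, at 1.3 to 20.1, so no fall could be measured there, and the difference between lines of 23.19 at 12 h and 30.57 at 24 h, called for both ligands, reflects the values of BT474 alone. The 12 h differences were not called with the within-list percentile (13.89, adjusted p = 0.393, for EGF and 16.66, 0.203, for HRG).

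**Figure D2:**
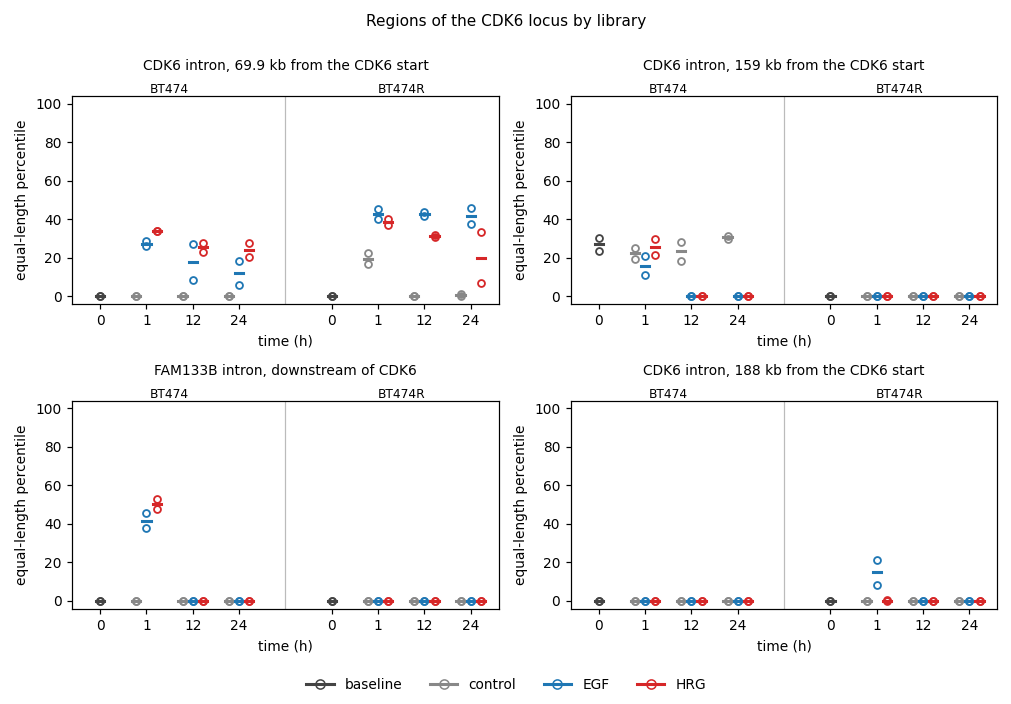
Equal-length percentile (0 for a region outside the 30226 strongest) of 4 regions of the CDK6 window against time in h, in BT474 (left of each panel) and BT474R (right); circles are libraries and bars group means (n = 2). The intron region 69890 bp from the start was above its control with both ligands in both lines, the FAM133B region only at 1 h in BT474, and the region 159175 bp from the start was at 0 with both ligands at 12 and 24 h.

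The CDK6 promoter itself (chr7:92832619-92834222) was open in all 40 libraries, at within-list percentiles of 84.87 to 89.64 (median 88.20) in BT474 and 78.27 to 89.53 (median 86.50) in BT474R. No ligand comparison called it. Between the lines it was lower in BT474R (-2.10 ± 0.70 points, adjusted p = 0.00849), a call lost when regions were ranked by the p of the peak (-1.21, adjusted p = 0.44). The distal region with the highest percentile, in an intron (chr7:92652474-92653018), was higher in BT474R (10.67 ± 1.81, adjusted p = 1.12e-05; 2.52 and 0.0694 with the within-list percentile). In EGF-BT474R at 24 h it fell by 16.84 points (adjusted p = 0.0357), from 54.5 and 55.4 to 51.3 and 52.2 in within-list percentile, a call lost without any 1 of the 4 libraries (-19.13 to -14.55). This fall was not called with the within-list percentile (-3.18, adjusted p = 0.765).

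Among the weaker CDK6 regions, one 187855 bp from the start (chr7:92645606-92646062) had peaks in 9 of 20 BT474R libraries and in no BT474 library (Fisher's exact test, adjusted p = 0.00244). At 1 h in BT474R its within-list percentiles were 39.0 and 38.5 in the control, 44.4 and 48.2 with EGF and 39.99 and 43.52 with HRG. Its 1 h rise with EGF of 14.93 ± 2.82 (adjusted p = 0.0109) was lost without either control library (14.93), was 21.45 without the first and 8.40 without the second EGF library, and was lost with the within-list percentile (7.56, adjusted p = 0.432). The region at chr7:92717809-92718418, by contrast, had peaks in 17 BT474 and 0 BT474R libraries (adjusted p = 1.46e-07). An exon region (chr7:92608560-92609214) was lower in BT474R (-19.11 ± 2.12 points, adjusted p = 1.89e-08). In HRG-BT474R at 24 h it was at 55.2 and 41.1, against 24.0 and 36.1 in the control, and rose by 14.68 ± 2.33 (adjusted p = 0.022), a call lost without the first control library (11.20) and with the within-list percentile (18.13, adjusted p = 0.546). A neighbouring weak region (chr7:92766617-92767061) rose in EGF-BT474R at 1 h by 6.73 ± 1.22 (adjusted p = 0.00843), with EGF at 44.5 and 37.0 and the control at 39.1 and 39.3 within the list, where the groups overlapped and the rise was 1.53 (adjusted p = 1). Like chr7:92645606-92646062, it was above 0 on the equal-length scale almost only with EGF at 1 h in BT474R. Both were thus tested through the group where they were high. Across the 10 CDK6 regions tested between the lines, 5 were higher and 4 lower in BT474R.

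CDK4, the other partner of the D-type cyclins, lies in a dense stretch of genes, and 9 of the 11 regions in its window are promoters. Its promoter (chr12:57751461-57752927) was at 86.87 to 90.86 (median 89.16) in BT474 and 79.65 to 87.95 (median 84.76) in BT474R, and was lower in BT474R (-4.62 ± 0.70 points, adjusted p = 2.49e-06), with overlap of the lines. In the window 2 regions were higher and 6 lower in BT474R of 10 tested. The largest rise of the 58 regions tested was at a start of AGAP2 (chr12:57741750-57742411), which encodes a GTPase-activating protein: 13 of 20 BT474 libraries had a peak, at 0.28 to 16.62, and all 20 BT474R libraries did, at 27.13 to 65.22, with a difference of 24.48 ± 1.75 (7.48e-12) and no overlap between the lines. An exon region 4279 bp from another AGAP2 start (chr12:57725850-57727550) showed no call between the lines (-3.98 ± 2.62, adjusted p = 0.165). There the second baseline library and the first 12 h control library of BT474R were far below the rest (53.5 and 57.6 against 79.8 to 90.0 within the list). Without the first baseline library of BT474R the fall was called (-6.31), as it was without the second 12 h control library of that line (-5.37), and when ranked by the p of the peak the sign turned (10.65, adjusted p = 1.54e-05). In EGF-BT474 over the 3 times it fell by 2.80 ± 0.84 (adjusted p = 0.0376), a call lost without any of 9 of the 12 libraries (-2.99 to -2.21). That call was also lost with the within-list percentile (-0.87, adjusted p = 0.266).

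Ligand calls at CDK4 were few. A region 204 bp from the start of CYP27B1, a vitamin D hydroxylase gene (chr12:57765972-57766874), was open in 17 BT474 and 0 BT474R libraries. It stood at 46.9 and 42.0 with HRG at 1 h against 36.8 and 34.6 in the control and rose by 12.77 ± 2.52 (adjusted p = 0.00527). That call passed without any 1 library, though its size was 7.08 without the first and 18.46 without the second HRG library, and was lost with the within-list percentile (8.71, adjusted p = 0.777). On the equal-length scale this region's means in BT474 were 13.26 with HRG at 1 h, 0.49 in the 1 h control and 0 elsewhere. It was thus tested almost only through the group where it was high, and its p-value is not independent support. A region in CDK4 near the start of MARCHF9 (chr12:57754410-57755208) fell in EGF-BT474R at 12 h, from 43.2 and 53.7 to 36.0 and 35.0, a difference of -18.37 ± 4.15 points (adjusted p = 0.0128; at 24 h -13.54 ± 4.15, 0.044; over the 3 times -8.98 ± 2.40, 0.016). The 12 h call was lost without the first control or either EGF library (-18.58 to -17.89), the call over the 3 times without the first 1 h EGF or the first 24 h control library (-7.54 and -7.99), and both of these with the within-list percentile (-12.97, adjusted p = 0.176, and -6.04, 0.17).

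CCND1, the D-type cyclin most often amplified in breast cancer, had lower peak ranks in BT474R over most of its window. All 8 of its regions that could be tested were lower. Its promoter (chr11:69640274-69642474) was at 80.56 to 88.52 (median 84.74) in BT474 and at 63.76 to 79.50 (median 73.00) in BT474R, so that every BT474 library was above every BT474R library, and the difference was -15.61 ± 1.08 (adjusted p = 4.14e-12). The distal region with the highest median over the 40 libraries, in the gene (chr11:69642585-69646219), was at 98.43 to 99.15 against 95.76 to 98.27 (-2.21 ± 0.18, 5.03e-11). The other lower regions included one in an LTO1 intron just past the 3′ end of CCND1 (chr11:69653963-69657404, -4.98 ± 0.22), which was the stronger of the pair in BT474 (median 99.21 against 98.73), and an intergenic one (chr11:69685902-69686337, -16.25 ± 1.27). An LTO1 start region (chr11:69667783-69668375) was the one exception by presence, with peaks in 11 BT474R and 0 BT474 libraries (Fisher's exact test, adjusted p = 0.000357), all weak (4.82 to 28.94). With the within-list percentile 1 of the 12 regions was higher and 11 lower.

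Of the 8 gene promoters that had a region, the CCND1 promoter varied most across the 40 libraries, with an SD of 8.86 points, followed by CCNE1 (7.06) and CDKN1B (4.85), and CCNE2 varied least (1.21). Among 12662 promoters elsewhere, those of CEBPB (Pearson r = 0.936), ITFG1 (0.928) and PHKB (0.928) followed it most closely over the 40 libraries. These correlations describe libraries that share lines and list lengths.

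The CCND1 ligand calls recomputed under other settings were small or lost in some of them. The LTO1 intron region chr11:69653963-69657404 rose with EGF in BT474 at 24 h by 0.70 ± 0.22 points (adjusted p = 0.0466). That call was lost without 3 of its 4 libraries (0.50 to 0.81). It was also lost with the within-list percentile (0.46, adjusted p = 0.154) and when ranked by the p of the peak (0.75, 0.298). Over the 3 times this region rose in BT474 by 0.47 ± 0.13 with EGF (adjusted p = 0.0229) and by 0.46 ± 0.13 with HRG (0.0194). In BT474R it rose by 1.68 ± 0.54 with EGF (0.0393). The calls over the 3 times were not recomputed. The intergenic region at chr11:69685902-69686337 fell in HRG-BT474R at 12 h (-17.58 ± 3.39, adjusted p = 0.0149) and over the 3 times (-8.83 ± 1.96, 0.0252), and in EGF-BT474R at 24 h (-14.40 ± 3.39, 0.0116). Its within-list percentiles were 24.7 and 33.1 in the 12 h control and 31.5 and 27.9 with HRG, and on that scale all 3 differences turned positive (0.79, 0.59 and 0.30). Those calls were also lost without single libraries, namely 3 of 4 for the first (-18.68 to -13.32), 8 of 12 for the second (-9.19 to -7.41) and 2 of 4 for the third (-13.66 and -13.33). In BT474R at 12 h the HRG lists (45808 and 42604 peaks) were longer than the control lists (32479 and 40331). A call at chr11:69670104-69670546 in EGF-BT474R over the 3 times (-7.48 ± 2.46, adjusted p = 0.0438) was lost without any of 9 of the 12 libraries (-8.30 to -6.06). That call was also lost with the within-list percentile (-3.58, adjusted p = 0.58).

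Within CCND1, 2 weak intron regions that were chosen after their values were seen had peaks in BT474 only. The first (chr11:69646561-69647554) was open in 5 of 6 EGF, 5 of 6 HRG and 1 of 6 control libraries, and in both baseline libraries (Fisher's exact test for each ligand, p = 0.0801 before adjustment). The second (chr11:69650032-69650972) was open in 6 of 6 EGF, 6 of 6 HRG and 3 of 6 control libraries.

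No region lay at the start of CCND2, and its window held 1 weak intron region and 2 promoters of TIGAR, a regulator of glycolysis. The intron region (chr12:4276979-4277271) had peaks in 19 of 20 BT474 libraries at 9.99 to 25.19 and in 4 of 20 BT474R libraries at 0.82 to 12.39. The first TIGAR promoter region (chr12:4307696-4308932) was at 76.76 to 85.91 (median 80.89) in BT474 and 48.99 to 71.70 (median 64.16) in BT474R, with no overlap, and differed by -21.95 ± 0.96 (adjusted p = 6.93e-16). In BT474 it was higher with HRG at 1 h, at 85.7 and 85.9 against 80.7 and 80.9 (8.17 ± 1.87, adjusted p = 0.0129), and with EGF at 24 h, at 81.9 and 83.6 against 77.5 in both controls (6.5 ± 1.87, 0.0356). The EGF call was lost without any 1 of its 4 libraries (5.28 to 7.73), and the HRG call was not recomputed.

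CCND3 went the other way. Of its 11 regions tested, 8 were higher in BT474R and 1 lower, and with the within-list percentile the numbers were also 8 and 1 of 12, and 9 and 1 of 11 when ranked by the p of the peak. Its promoter (chr6:41940879-41942400) was at 89.57 to 92.50 (median 90.86) in BT474 and 91.54 to 95.98 (median 94.66) in BT474R, with a difference of 6.80 ± 0.36 (adjusted p = 2.18e-14). Larger differences were at another start of CCND3 (chr6:42048405-42049208, 19.08 ± 2.33, 8.72e-08) and in an intron (chr6:42044080-42044676, 16.06 ± 1.68, 6.49e-09). Both were lost with an area score of at least 400 (1.70, adjusted p = 0.13, and 1.03, 0.182). The strongest distal region (chr6:42045612-42046143) was higher by 10.26 ± 1.45 (8.3e-07), which was not called with the within-list percentile (1.63, adjusted p = 0.225).

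The CCND3 ligand calls recomputed under other settings were each lost without some library. An exon region of the neighbour C6orf132 (chr6:42094969-42095477) fell in EGF-BT474R at 24 h (-16.59 ± 4.44, adjusted p = 0.0233), from 37.01 and 43.98 to 40.9 and 29.9 within the list, while in BT474 it stood at 59.2 and 54.3 with EGF against 48.2 and 44.4. The difference of the EGF response between the lines was -28.26 ± 6.71 (adjusted p = 0.0067). The fall was lost without any 1 of its 4 libraries (-17.49 to -15.68), the difference without the first 24 h EGF library of BT474 (-23.32), and both with the within-list percentile (-5.11, adjusted p = 0.892, and -15.53, 0.39). At a start of USP49 (chr6:41895043-41896220) the value fell with HRG in BT474 at 24 h, from 79.8 and 79.9 to 74.7 and 76.5 (-7.77 ± 2.37, adjusted p = 0.0447), a call lost without any 1 of the 4 libraries (-9.32 to -6.23). The region at chr6:42045612-42046143 fell in EGF-BT474R over the 3 times (-8.95 ± 3.03, adjusted p = 0.0495), a call lost without any of 10 of the 12 libraries (-9.60 to -7.05). That call was also lost with the within-list percentile (-4.50, adjusted p = 0.354).

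**Figure D3:**
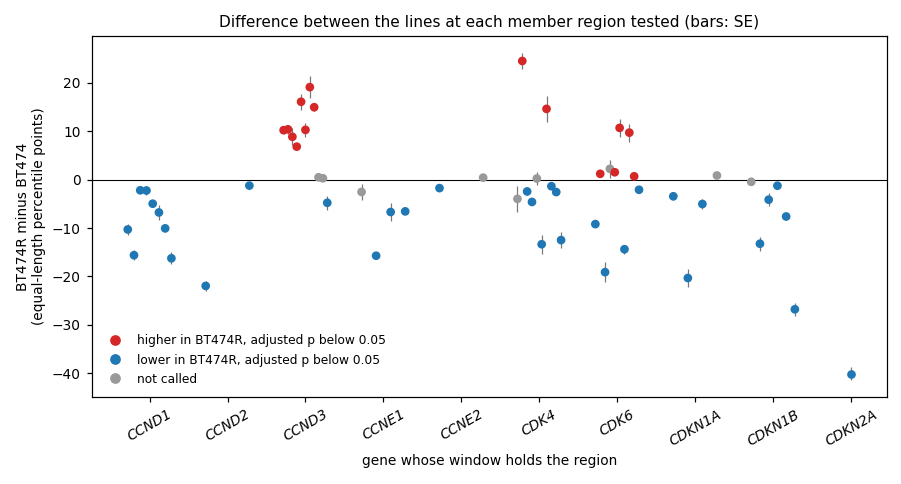
Difference between the lines (BT474R minus BT474, equal-length percentile points, mean over 10 matched conditions; bars, SE) at each of the 58 regions tested, by gene. The CCND1, CCND2, CCNE1, CDKN1B and CDKN2A windows had no region called higher in BT474R, whereas 8 of 11 CCND3 regions were higher, and the range ran from -40.07 at the CDKN2B promoter to 24.48 at the AGAP2 start.

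At CCNE1, which encodes cyclin E1, the promoter (chr19:29811368-29812279) was open in all 40 libraries at 64.04 to 77.25 (median 73.07) in BT474 and 57.87 to 75.25 (median 69.22) in BT474R. The difference of -2.55 ± 1.69 was not called (adjusted p = 0.167), but it was with the within-list percentile (-4.90, 0.00122), when ranked by the p of the peak (-10.52, 0.000385) and without the second 12 h EGF library of BT474 (-3.44). A distal region 17748 bp from the start (chr19:29834951-29835305, the fourth sequence above) was open in all 20 BT474 libraries, at 33.09 to 61.93, and in 1 of 20 BT474R libraries (12.85; Fisher's exact test, adjusted p = 2.64e-09). A stronger distal region (chr19:29844336-29845961) was at 91.01 to 95.30 in BT474 and 83.16 to 93.02 in BT474R (-6.57 ± 0.55, adjusted p = 1.17e-10).

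Both distal CCNE1 regions fell late after ligand in BT474. The stronger one was at 92.8 and 94.3 in the 12 h control and 91.1 and 91.2 with EGF, and at 94.8 and 94.2 in the 24 h control, 91.0 and 91.7 with EGF and 91.2 and 92.0 with HRG. With EGF it differed from the control by -5.32 ± 0.94 points at 12 h (adjusted p = 0.0067), -6.44 ± 0.94 at 24 h (0.000849) and -3.60 ± 0.54 over the 3 times (0.000686), and with HRG by -5.12 ± 0.94 at 24 h (0.0031). The 12 h call was lost without the second library of either group (-4.84 and -4.12), and the EGF calls when ranked by the p of the peak (-6.02, adjusted p = 0.193, over the 3 times). In EGF-BT474R at 24 h it was at 87.0 and 83.2 against 87.8 and 89.3 and fell by 8.77 ± 2.18 (0.0156).

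The weaker CCNE1 region was at 50.9 and 54.2 in the 12 h control of BT474 and 46.8 and 43.2 with HRG, and at 50.3 and 44.7 in the 24 h control, 33.1 and 39.7 with HRG and 40.6 and 46.0 with EGF. With HRG it differed from the control by -18.81 ± 3.42 points at 12 h (adjusted p = 0.0045), -13.21 ± 3.42 at 24 h (0.022) and -8.80 ± 1.98 over the 3 times (0.00658), and with EGF by -11.52 ± 3.42 at 24 h (0.0404). With the within-list percentile none of these was called (-7.56, -11.15, -5.15 and -4.25). The 24 h calls were also lost without single libraries, namely any 1 of 4 for EGF (-14.62 to -8.42) and the first control or either HRG library for HRG (-13.21 to -10.10). Because BT474R was at 0, the called differences between the lines (11.27 and 11.52 for EGF at 12 and 24 h, 18.81 and 13.21 for HRG) reflect BT474 alone. None of these differences was called with the within-list percentile (2.12 and 4.25 for EGF, 7.56 and 11.15 for HRG).

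CCNE2, which encodes cyclin E2, had the strongest promoter of the set (chr8:94894229-94897203), at 98.87 to 99.37 in BT474 and 95.56 to 98.70 in BT474R. The difference was -1.76 ± 0.27 (adjusted p = 2.09e-06), and -1.22 (0.156) with peaks trimmed to 400 bp. A weak intron region of the neighbour NDUFAF6, 17600 bp from the CCNE2 start (chr8:94914278-94914659), had a peak in 20 of the 24 ligand libraries and in none of the 16 libraries without ligand. In BT474R it was open in 6 of 6 EGF libraries, at 1.9 to 43.8, and 6 of 6 HRG libraries, at 8.7 to 28.1, against 0 of 6 controls (Fisher's exact test, p = 0.00216 for each, adjusted p = 0.217 for EGF and 0.579 for HRG). In BT474 it was open in 4 of 6 EGF and 4 of 6 HRG libraries, all at 12 and 24 h, and in 0 of 6 controls. Its pattern across the arms was noticed after the values were seen, and 16 of all 71600 regions (0.0223%) were open in at least 20 ligand libraries and in none without ligand. Its level was near the floor of the lists, with a median of 24.58 in BT474 and 15.74 in BT474R where it had a peak. The exon region of CCNE2 (chr8:94893473-94893842) had peaks in 18 BT474 and 0 BT474R libraries (adjusted p = 2.32e-08), and a region in TP53INP1 (chr8:94945442-94945690) in 18 and 2.

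CDKN1A, the p21 gene, had a promoter region (chr6:36678299-36679829) at 85.27 to 91.22 (median 88.27) in BT474 and 75.24 to 89.54 (median 86.19) in BT474R. By the area score it was lower in BT474R (-3.45 ± 0.69 points, adjusted p = 8.22e-05) but higher by 5.16 points (1.16e-06) when regions were ranked by the p of the peak, so its direction between the lines depends on the measure. No ligand comparison called it.

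The strongest distal CDKN1A region, in an intron 3626 bp from the start (chr6:36682347-36683426, the fifth sequence above), rose late after both ligands in BT474. Its within-list percentiles in the 24 h control were 76.4 and 75.8, against 86.3 and 86.9 with EGF and 83.4 and 83.4 with HRG. At 12 h the control was at 73.3 and 73.8, EGF at 77.1 and 77.8 and HRG at 80.1 and 81.5, and at 1 h the control (78.3 and 81.6) overlapped EGF (81.9 and 80.8) and HRG (79.1 and 77.8). The rise at 24 h was 15.82 ± 2.19 with EGF (adjusted p = 0.000626) and 11.67 ± 2.19 with HRG (0.00357). Over the 3 times it was 6.56 ± 1.26 with EGF (0.00359) and 6.23 ± 1.26 with HRG (0.00352). These 4 calls held without any 1 library, and each missed the threshold when ranked by the p of the peak, with differences that were no smaller (16.73, 13.66, 7.03 and 8.55 in the same order, adjusted p = 0.0988 to 0.204). The 12 h HRG call (9.13 ± 2.19, adjusted p = 0.02) was lost without any 1 of its 4 libraries (7.81 to 10.45). In BT474R the region was at 63.8 and 76.7 in the 24 h control, 77.2 and 79.4 with EGF and 79.0 and 77.8 with HRG and was not called, and the difference of the response between the lines was not called either. Between the lines it was lower in BT474R (-5.04 ± 1.08, 0.000185), and 2.25 points higher (adjusted p = 0.202) when ranked by the p of the peak.

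Other CDKN1A regions differed in presence. A region 9006 bp upstream (chr6:36667096-36667454) had peaks in 9 BT474R and 0 BT474 libraries (Fisher's exact test, adjusted p = 0.00244), and a region in RAB44 (chr6:36724644-36724896) in 18 BT474 and 1 BT474R libraries. An upstream region with the TGAGTCA letters (chr6:36643150-36643540) had peaks in 6 of 6 EGF-BT474 libraries and 1 of 6 controls, which did not pass correction (Fisher's exact test, p = 0.0152, adjusted p = 0.0796).

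**Figure D4:**
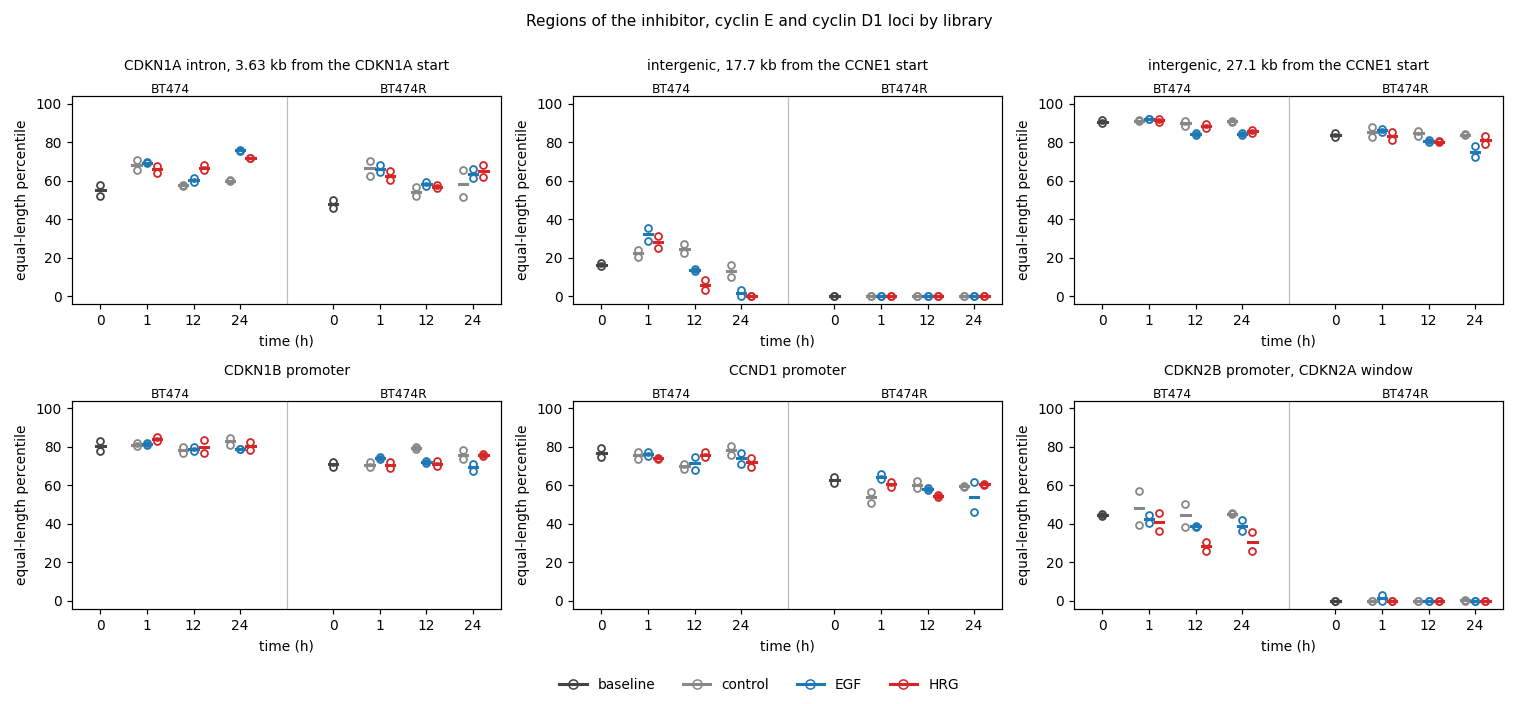
Equal-length percentile of 6 regions at the inhibitor, cyclin E and cyclin D1 loci against time in h, in BT474 (left of each panel) and BT474R (right); circles are libraries and bars group means (n = 2). The CDKN1A intron region was higher with both ligands at 24 h in BT474, both CCNE1 regions were lower with the ligands at 24 h, and the CDKN2B promoter was near 0 in BT474R.

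CDKN1B, the p27 gene, was less open in BT474R, with 5 of its 6 tested regions lower and none higher. Its promoter (chr12:12716361-12718414) was at 85.54 to 90.83 (median 88.42) in BT474 and 76.58 to 86.40 (median 83.20) in BT474R, a difference of -7.62 ± 0.69 (adjusted p = 4.95e-10). The promoter of the neighbour APOLD1 (chr12:12723622-12726187) was the strongest region of the window in BT474 but not in BT474R, at 92.93 to 98.07 in BT474 and 63.06 to 88.66 in BT474R, with no overlap (-26.78 ± 1.33, 8.04e-15). The distal region with the highest percentile (chr12:12704642-12704948, in an intron) was lower (-4.15 ± 1.35, 0.00737). The CDKN1B promoter fell in BT474R at 12 h with EGF, from 80.6 and 83.9 to 77.7 and 76.6 (-7.26 ± 1.90, adjusted p = 0.0277), and with HRG, to 81.6 and 78.2 (-8.04 ± 1.90, 0.039). These share their control libraries, and each call was lost without any 1 of its 4 libraries (-7.67 to -6.84 and -9.46 to -6.63) and with the within-list percentile (-5.10, adjusted p = 0.148, and -2.36, 0.554). A CDKN1B intron region open in 14 BT474 libraries and none of BT474R (chr12:12713995-12714980) gave a difference of the EGF response between the lines at 12 h of -8.18 ± 2.44 (adjusted p = 0.049), lost without any of 7 of the 8 libraries (-8.18 to -4.47). With the within-list percentile that difference was -28.71 and was not called (adjusted p = 0.446).

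No region lay at a start of CDKN2A. The stronger of its 2 regions was the promoter of the neighbour CDKN2B (chr9:22008640-22009778), which encodes p15, another inhibitor of CDK4 and CDK6. It was at 56.10 to 72.95 (median 64.25) in the 20 BT474 libraries and at 4.88 to 42.84 (median 28.84) in the 16 BT474R libraries with a peak, which left no overlap. The difference of -40.07 ± 1.37 (adjusted p = 5.5e-18) was the largest fall of the set. In BT474 it fell with HRG over the 3 times (-12.68 ± 3.39 points, adjusted p = 0.017). The HRG libraries were at 64.5 and 60.2, 59.8 and 57.0, and 62.0 and 56.1, against controls at 73.0 and 61.8, 69.1 and 61.4, and 67.9 and 66.6. The call was lost without the second 1 h HRG library (-11.14) or the first 12 h control library (-10.64), with an area score of at least 400 (-9.38, adjusted p = 0.156) and when ranked by the p of the peak (-7.35, 0.239). The weak intergenic region of the window (chr9:22041940-22042177) had peaks in 8 BT474 and 3 BT474R libraries, at no more than 16.23.

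Further calls were described after their values were seen and were not recomputed under other settings. An LTO1 promoter region (chr11:69674331-69675756) fell at 24 h with EGF in BT474 (-6.18 ± 1.86, adjusted p = 0.0427), with HRG in BT474 (-6.61 ± 1.86, 0.0323) and with EGF in BT474R (-9.38 ± 2.54, 0.0246). The other TIGAR promoter region (chr12:4320506-4321741) fell at 24 h in BT474 with EGF (-4.57 ± 1.21, 0.0249) and HRG (-4.50 ± 1.21, 0.0266). The CDK4 promoter fell with HRG in BT474 at 24 h (-4.66 ± 1.30, 0.031) and the CDKN1B promoter with EGF in BT474R at 24 h (-6.59 ± 1.90, 0.0335). In the CCND3 window chr6:42045612-42046143 (-7.43 ± 2.43, 0.0435) and the start at chr6:42050232-42051063 (-4.69 ± 1.57, 0.0482) fell with HRG in BT474 over the 3 times. With EGF in BT474R over the 3 times the CDKN1B promoter (-3.36 ± 1.10, 0.0431) and the stronger distal CCNE1 region (-3.92 ± 1.26, 0.0395) fell. So did the LTO1 promoter region chr11:69674331-69675756 (-4.57 ± 1.47, 0.0395). In BT474 over the 3 times the TIGAR promoter region chr12:4320506-4321741 fell with EGF (-2.26 ± 0.70, 0.0439). The stronger distal CCNE1 region fell there with HRG (-2.03 ± 0.54, 0.0171).

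Between the lines, 49 of the 58 regions tested were called, 15 higher and 34 lower in BT474R, with a median difference of -2.35. Of all 44158 regions tested 80.4% were called, 18012 higher and 17483 lower, with a median of 0.13, so the number called at the G1 loci was near the background and the split between the directions was not. With the within-list percentile 14 were higher and 52 lower of 81, against 22685 and 32962 of all regions, and when ranked by the p of the peak 16 and 27 of 56, against 17095 and 18006 of 44926. By presence, 26 of the 36 regions that could be tested were called, 5 open in more and 21 in fewer BT474R libraries (72.2%), against 71.7% of all regions (Fisher's exact test, 20 against 20 libraries). Over all regions, called or not, 37.9% were open in more BT474 and 25.5% in more BT474R libraries.

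The share of G1 regions called in the ligand comparisons lay near the share of all regions. In EGF-BT474 2, 2 and 8 of 51 regions were called at 1, 12 and 24 h (all regions 5.35%, 6.04% and 15%) and 8 over the 3 times (17.2%). In HRG-BT474 4, 4 and 9 of 51 were called (12.2%, 10.3% and 14.7%) and 10 over the 3 times (23.6%). In EGF-BT474R 2, 3 and 8 of 49 were called (3.35%, 10.9% and 15.8%) and 10 over the 3 times (23.7%). In HRG-BT474R 0, 3 and 1 of 49 were called (0.424%, 3.45% and 0.474%) and 3 over the 3 times (4.13%), with 2 at an unadjusted p under 0.05 at 1 h. At 1 h each of the 8 calls, over both ligands and lines, was a rise, against 54.2% of the calls over all regions in the same 4 comparisons, and at 24 h 19 of the 26 were falls, against 35.6% of those over all regions. The 1 h calls other than that at the TIGAR promoter region (control mean 69.33) had control means of 0 to 0.49. There only a rise could be called, so the direction was set in advance. EGF and HRG share their controls, so their counts are not independent. Most of the 1 h calls lay in the CDK6 window. There the FAM133B region and the intron region 69890 bp from the CDK6 start were each called for both ligands in BT474.

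The difference of the EGF response between the lines was called at 3, 3 and 4 of 58 regions at 1, 12 and 24 h (all regions 2.72%, 5.84% and 10.7%), and of the HRG response at 2, 2 and 2 (3.97%, 3.39% and 4.72%). By presence, Fisher's exact test over 6 ligand and 6 control libraries called 0 of 10 G1 regions for EGF-BT474 (2 at an unadjusted p under 0.05; all regions 6.46%), 0 of 6 for HRG-BT474 (1; 8.98%), 0 of 5 for EGF-BT474R (1; 0%) and 0 of 5 for HRG-BT474R (1; 0%). In BT474R no region of the genome passed, with 278 for EGF and 148 for HRG at an unadjusted p under 0.05.

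Of 35 other genes of the G1/S network, 34 had a promoter region and RBL1 had none. CDKN1C (peaks in 3 BT474 and 2 BT474R libraries) and CDT1 (2 and 0) were nearly closed. Between the lines 28 of 32 promoters tested were called, 10 higher and 18 lower in BT474R, near the 80.4% called of all regions. E2F2, an activator of S-phase genes, was lower (-41.72 points, adjusted p = 2.03e-14) and FBXW7, which targets cyclin E for degradation, was lower too (-28.11, 1.1e-13), whereas MCM5, a subunit of the replicative helicase, was higher by 12.42 (2.14e-12) and E2F1 by 9.46 (9.85e-05). CDKN2B is in this list as well as in the CDKN2A window. In BT474 EGF called 1, 0 and 4 of 32 at 1, 12 and 24 h and 3 over the 3 times (all regions 5.35%, 6.04%, 15% and 17.2%). These were E2F8 at 1 h (4.79, adjusted p = 0.0492), E2F1 (-21.54, 0.0169), E2F6 (-39.71, 0.00699), MCM6 (-36.06, 0.0176) and ORC1 (6.10, 0.0257) at 24 h, and E2F4 (-14.86, 0.0355), E2F6 (-15.85, 0.0375) and CDK2 (-10.88, 0.0417) over the 3 times. HRG called 0, 1 and 0, with CDK2 at 12 h (-21.42, 0.0344), and 2 over the 3 times, namely CDKN2B and CDK7 (-5.18, 0.044), against 12.2%, 10.3%, 14.7% and 23.6% of all regions. In BT474R no comparison with a ligand called any of 30 promoters (all regions 0.424% to 23.7%), and no difference of a response between the lines was called.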

How the data were processed

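ATAC-seq was made from the human breast cancer line BT474 and its trastuzumab-resistant clone BT474R, with 40 libraries in 20 groups of 2. According to the methods and labels the authors trimmed reads with Trim Galore 0.6.6, aligned them with BBMap to GRCh38.p13, removed mitochondrial and blacklisted reads and called peaks in each library with Genrich (options not given in the sources used here). The deposited lists hold for each peak a score capped at 1000 (column 5), an area score (column 7, the main measure) and a −log10 p (column 8). Column 9 was not used. The lists hold no read counts, so depth is unknown and the precision of a value rests on the 2 libraries per group. One marker gene examined is not reported here.

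Peaks on chromosomes 1 to 22 and X were merged across libraries (1 bp overlap), and regions in at least 2 lists were kept. For tests, the 30226 strongest regions of each library were ranked and others set to 0. Regions above 0 in at least 2 libraries of a fit were tested with limma 3.58.1 (R 4.3.3, eBayes with trend) without a replicate term, on the 10 groups of a line for ligand against control at each time and over the 3 times, and on all 20 groups for the lines (mean over 10 conditions) and for the difference of a response between them. Presence was tested with two-sided Fisher's exact tests. p-values were adjusted by Benjamini-Hochberg over all regions tested, with a threshold of 0.05. The steps were tested on simulated data. Genes were placed with GENCODE release 44, the promoter being within 1 kb of a protein-coding start.

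Named regions were each gene's promoter and distal region with the highest median percentile, at most 3 called regions per direction and comparison, and regions with peaks in at least 18 libraries of one line and at most 2 of the other. Each named value was recomputed without each library, with a replicate block, and with other ranks, filters and peak widths. The members, lists and tests were chosen with earlier results of these data known. Replicate numbers were checked for pairing by the correlation of deviations from group means, which ran from -0.055 to 0.306 over 12 pairs of groups, 4 of them over 0.1, so the numbers were not taken to pair libraries.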

Additional observations from a re-analysis of the deposited data

Results flagged for a closer look

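A limma test called a difference of the ligand response between BT474 and BT474R at 16 combinations of region, ligand and time. Values are given here in equal-length percentile points as the response of BT474R minus that of BT474. With the within-list percentile most of the 16 were not called. Only the FAM133B region at 1 h and the CDK6 region 159175 bp from its start at 24 h kept their calls, for both ligands. At 1 h the FAM133B intron region downstream of CDK6 differed by -41.72 for EGF and -50.20 for HRG, and the CDK4-window region 204 bp from the CYP27B1 start by -12.77 for HRG (-18.46 to -7.08 without single libraries). In these 3 cases no BT474R library was among the strongest regions. Weak CDK6 intron regions differed at 1 h for EGF by 14.93 (chr7:92645606-92646062, 8.40 to 21.45 without single libraries) and 6.73 (chr7:92766617-92767061), and in both cases no BT474 library was among the strongest regions.

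At 12 h the CDK6 region 159175 bp from its start differed by 23.19 for EGF and by 23.19 for HRG (both values are the mean control level of BT474), the CCNE1 region 17748 bp from its start by 11.27 for EGF and 18.81 for HRG, and a CDKN1B intron region by -8.18 for EGF (-11.89 to -4.47 without single libraries). At 24 h the same CDK6 region differed by 30.57 for each ligand and the same CCNE1 region by 11.52 for EGF and 13.21 for HRG. At this CDK6 region, this CCNE1 region and the CDKN1B region every BT474R group was at 0 on the equal-length scale. No fall could be measured in BT474R there, and these differences reflect the values of BT474 alone. The C6orf132 exon region of the CCND3 window differed by -28.26 for EGF, and the CDK6 intron region 69890 bp from its start by 29.47 for EGF.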

How the results depend on the processing

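Of 98 named calls, 61 held without any 1 library and 37 were lost without some library. Calls were lost in 31 of 86 when ranked by the p of the peak, 36 of 92 with the within-list percentile, 19 of 50 with an area score of at least 400, 6 of 97 with peaks trimmed to 400 bp, 3 of 98 with a column 5 score of at least 400 and none with regions in at least 4 libraries; the causes were not tested. The sign turned at chr11:69685902-69686337 with the within-list percentile (0.30, 0.79 and 0.59), at chr7:92766617-92767061 (-5.69), and, ranked by the p of the peak, between the lines at chr12:57725850-57727550 (10.65) and in 2 CDKN1A regions (5.16 and 2.25).

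The number of member regions was 46 within 10 kb and 144 within 100 kb. Numbers of regions called follow, each for 1 setting and in the order 1, 12, 24 h and 3 times, naming only those that moved by over 1.5 times. Within 10 kb EGF-BT474 gave 1, 1, 4 and 4, HRG-BT474 2 (1 h), 4 (24 h) and 6 (3 times), EGF-BT474R 4 (24 h), the difference of the EGF response 2 (24 h), of the HRG response 0, 1 and 1, and the lines by presence 14. Within 100 kb EGF-BT474 gave 4 (1 h), 14 (24 h) and 16 (3 times), HRG-BT474 10, 8, 15 and 19, EGF-BT474R 11 (12 h), 16 (24 h) and 21 (3 times), HRG-BT474R 5 (12 h), 2 (24 h) and 7 (3 times), the lines 83 by rank and 41 by presence, and the differences of response 9 (EGF, 12 h), 9 (EGF, 24 h) and 4 (HRG, 1 h). With an area score of at least 400 EGF-BT474 gave 1 (1 h), 5 (24 h) and 5 (3 times), HRG-BT474 2 (12 h) and 6 (3 times), EGF-BT474R 0, 0, 3 and 2, HRG-BT474R 0 (12 h), 0 (24 h) and 0 (3 times), the lines 28, the differences of response 0, 0 and 1 for EGF and 1, 0 and 0 for HRG, and presence 1 for each ligand in BT474. Ranked by the p of the peak EGF-BT474 gave 1 (12 h), 3 (24 h) and 4 (3 times), HRG-BT474 2 (12 h), 4 (24 h) and 6 (3 times), HRG-BT474R 0 (12 h) and 0 (24 h), and the HRG difference 1 (12 h). With the within-list percentile EGF-BT474R gave 1 (12 h) and 6 (3 times), HRG-BT474R 1 (1 h) and 0 (24 h), the EGF difference 0 (12 h) and the HRG difference 1, 0 and 1. With trimmed peaks EGF-BT474 gave 4 (12 h), HRG-BT474R 1 (1 h) and 0 (24 h) and the EGF difference 7 (24 h). Presence among equal numbers of top regions gave 1 for each ligand in BT474 and 12 for the lines.

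Without single libraries EGF-BT474 gave 1 to 2, 0 to 8, 3 to 6 and 5 to 13, HRG-BT474 2 to 3 (12 h) and 4 to 9 (24 h), EGF-BT474R 0 to 1, 1 to 2, 2 to 6 and 1 to 6, HRG-BT474R 0 to 1 (12 h), 0 to 3 (24 h) and 1 to 4 (3 times), the differences 1 to 2 (EGF, 12 h), 1 to 5 (EGF, 24 h) and 1 to 3 (HRG, 24 h), and presence 0 to 1 for each ligand in BT474. With a replicate block the number of regions called between the lines was 49, and 1 of the 98 named calls was lost, in CCND3 with EGF-BT474R over the 3 times (-8.95, adjusted p = 0.0583).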
